A study of Mus musculus with 96 samples.

Results

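NSG mice that received MLL-AF9 leukaemia of LSK origin alone, or of GMP origin alone, were compared clone by clone. They comprised 8 of the mice of the series, 4 of each origin, and were chosen by the labels: mice 9 to 12 received LSK leukaemia and mice 13 to 16 received GMP leukaemia. Bone marrow and spleen were sampled from each mouse, which gave 16 tissue samples, deposited as 32 of the 96 sample records because each tissue was amplified as a pair of PCR duplicates that the authors had collapsed. Each origin also had 1 sample of its cell pool taken before transplantation. The clones were marked with SPLINTR barcodes, which are stretches of DNA inserted into the genome and inherited by the descendants of the marked cell. The LSK pool carried the GFP barcode library and the GMP pool the mCherry barcode library. Both kinds of progenitor were sorted from the marrow of female C57BL/6 donors aged 6 to 8 weeks, transduced with an MLL-AF9 retrovirus and grown with IL-3, IL-6 and SCF before they were barcoded. LSK leukaemia started from lineage-negative cells with c-Kit and Sca-1 on their surface. GMP leukaemia started from lineage-negative c-Kit positive cells with CD34 and high Fcγ receptor. NSG mice lack B, T and NK cells. The age and sex of the recipients were not given in the sources used here.

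MLL-AF9 joins the chromatin regulator MLL to AF9, a partner that recruits transcription elongation factors. The fusion keeps a stem cell programme running in myeloid progenitors and is a standard way of making acute myeloid leukaemia in mice. The LSK population includes haematopoietic stem cells and multipotent progenitors. GMPs are committed to granulocytes and monocytes, and without an oncogene they do not renew themselves for long. After transplantation, leukaemia cells seed the marrow and later fill the spleen, and barcodes show how many of the injected cells contributed.

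The 16 tissue samples held 5785591 to 8499553 barcode reads, the LSK pool 5871935 and the GMP pool 4856030. All shares below are percentages of the reads of the barcode library that the mouse received, so a share can shift without a change in the number of cells. Reads from the other barcode library made up 0.00982% to 0.538% of a sample. They reached at least 0.1% in the marrow of LSK mouse 12 and the spleens of LSK mouse 10 and of GMP mice 13 and 14. A single pool of each origin was used, each in its own barcode library, so origin, culture and barcode library cannot be told apart. The p-values measure only the spread between mice that shared a pool. Since 4 mice were set against 4, an exact permutation test could not give a p below 0.0286. Of the 17 comparisons of LSK with GMP recipients in NSG mice, 0 passed after Benjamini-Hochberg adjustment, and 2 had an unadjusted exact permutation p under 0.05. With 0.0286 as the smallest p, a comparison could pass adjustment only if most of the 17 stood at that value. In these 2 comparisons the origins did not overlap, yet the adjusted exact permutation p was 0.243. That 0 passed therefore does not show that the origins were alike.

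Before transplantation the pools had similar shapes. The LSK pool held 679 clones at or over 100 CPM, which is 0.01% of its reads, and the GMP pool held 607. The effective number of clones, the exponential of the Shannon entropy, expresses diversity as a count of clones of equal size, and was 296 for LSK and 269 for GMP cells. The largest clone took 2.55% of LSK pool reads and 3.24% of GMP pool reads. The 10 largest together held 18.1% and 20.4% in the LSK and the GMP pool. To reach 90% of the reads took 334 LSK clones and 297 GMP clones.

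In every recipient most of these clones fell below that minimum. LSK mice 9, 10, 11 and 12 had 38, 35, 37 and 49 clones at or over 100 CPM in marrow, and GMP mice 13, 14, 15 and 16 had 37, 34, 30 and 34. The LSK mean of 39.75 ± 6.29 lay above the GMP mean of 33.75 ± 2.87 (SD, n = 4 each), but mice of the 2 origins overlapped. The difference was 0.23 on the log2 scale (exact permutation p = 0.0857, adjusted 0.432). Without mouse 12, the LSK mouse with the most clones, it was 0.12.

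In spleen the counts were 37, 34, 34 and 46 in LSK mice 9 to 12, against 31, 25, 31 and 32 in GMP mice 13 to 16. Here every LSK mouse had more clones than every GMP mouse. The means were 37.75 ± 5.68 and 29.75 ± 3.20 clones in LSK and GMP mice (SD, n = 4 each), a 1.26-fold difference with the smallest p that the design allows and an adjusted p that misses the threshold (exact permutation p = 0.0286, adjusted 0.243). The difference, 0.34 on the log2 scale, depended on how clones were counted. It was 0.20 over the barcodes of both libraries with CPM as deposited (exact permutation p = 0.114), 0.0997 at a minimum of 10 CPM (exact permutation p = 0.429) and 0.10 at 1000 CPM (exact permutation p = 0.457). Counting every clone above 0 turned it to -0.18 (exact permutation p = 0.657). The spleen of GMP mouse 14, with 25 clones, had the fewest, and it also held 0.538% of reads from the other barcode library. Leaving out the spleen samples with at least 0.1% of such reads left a difference of 0.30 on the log2 scale (exact permutation p = 0.2, 3 LSK against 2 GMP mice).

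Set against the larger LSK pool, the gap was narrower. The share of pool clones at or over 100 CPM that were also at or over 100 CPM in the mouse was 5.56% ± 0.73 in LSK marrows and 5.27% ± 0.52 in GMP marrows (SD, n = 4 each, exact permutation p = 0.6, adjusted 0.729). In spleen the LSK mice 9 to 12 kept 5.30%, 4.86%, 4.86% and 6.48% of their pool's clones, against 4.78%, 4.12%, 4.45% and 4.78% in GMP mice 13 to 16. The groups again did not overlap in spleen, with a difference of 0.85 percentage points (exact permutation p = 0.0286, adjusted 0.243). Raising the minimum to 1000 CPM reversed it to -0.52 points (exact permutation p = 0.543). Without mouse 12 the spleen difference was 0.48 points and that of marrow -0.068 points. Over both tissues of all 4 mice, 604 of 679 LSK pool clones and 548 of 607 GMP pool clones never reached 100 CPM. These lost clones made up 89.0% of the LSK pool's clones and 90.3% of the GMP pool's. They had held 69.8% of the LSK pool's reads and 70.9% of the GMP pool's.

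**Figure D1:**
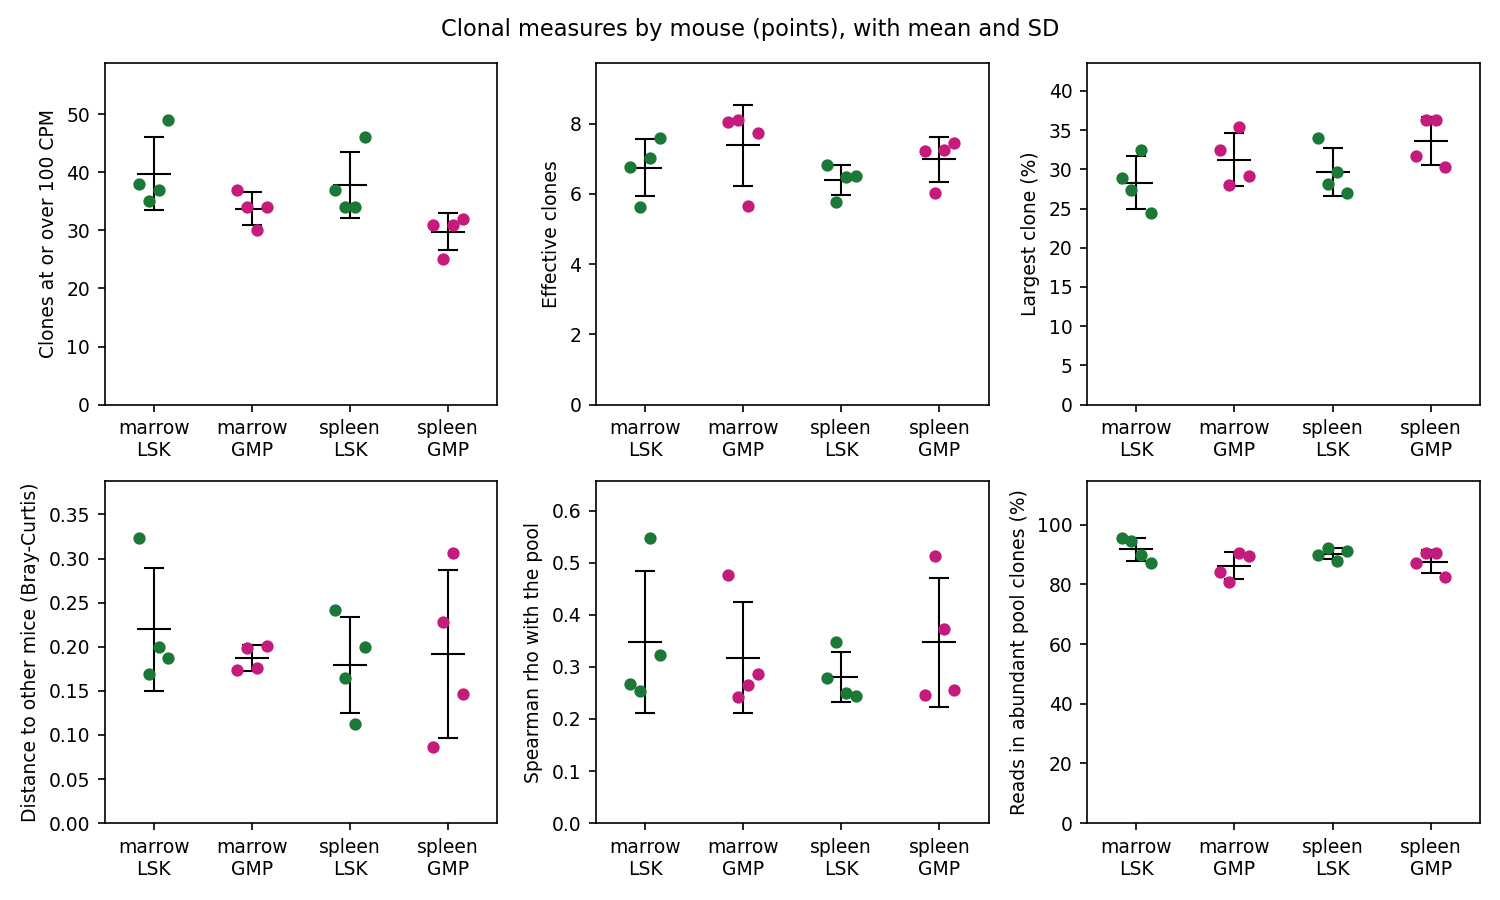
Each panel plots 1 clonal measure (y axis, units on each axis) for every NSG recipient, with LSK mice in green and GMP mice in magenta for marrow and spleen. Bars show the mean and SD of 4 mice. In the first panel the 4 LSK spleens (34 to 46 clones) lie above the 4 GMP spleens (25 to 32), while the groups overlap in the other panels and tissues.

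Diversity weighted by clone size did not separate the origins. The effective number of clones was 6.76, 5.64, 7.03 and 7.58 in the marrows of LSK mice 9 to 12, against 8.04, 8.11, 5.66 and 7.74 in the marrows of GMP mice 13 to 16. Marrow means were 6.75 ± 0.82 in LSK mice and 7.38 ± 1.16 in GMP mice (SD, n = 4 each, exact permutation p = 0.429, adjusted 0.662). In spleen they were 6.40 ± 0.44 in LSK mice and 6.99 ± 0.64 in GMP mice (exact permutation p = 0.229, adjusted 0.432). Taken relative to the origin's own pool, the difference of -0.12 in marrow and -0.13 in spleen on the log2 scale became -0.26 in both (exact permutation p = 0.143 in marrow and 0.0571 in spleen). LSK tissues held 39.0-fold to 52.4-fold fewer effective clones than the LSK pool, and GMP tissues 33.1-fold to 47.4-fold fewer than the GMP pool. The 10 largest clones of a sample took 96.0% ± 1.83 of LSK marrows and 95.9% ± 1.64 of GMP marrows (exact permutation p = 1). In spleens they took 97.1% ± 0.90 and 96.8% ± 1.78 in LSK and GMP mice (exact permutation p = 0.743, SD, n = 4 each).

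The shape within those 10 clones differed on inspection, which is given as a description because it was noticed in these values. In LSK mice 10, 11 and 12, 4 large clones were followed by a steep step down. In LSK marrows the clones of rank 1, 2, 3 and 4 held on average 28.3%, 21.6%, 19.6% and 16.6%, and that of rank 5 held 4.43%. Mouse 9 was the exception, with 16.3%, 11.8% and 2.75% at ranks 4, 5 and 6 of its marrow, and without it the mean at rank 5 was 1.97%. GMP marrows fell off by degrees on average, with 31.2%, 24.7%, 14.7%, 8.90% and 5.32% at ranks 1 to 5. Single GMP marrows had steps, from 30.8% at rank 2 to 10.9% at rank 3 in mouse 15. In mouse 16 the step was from 20.3% at rank 3 to 8.80% at rank 4. All GMP spleens stepped down from rank 2 (23.6% to 27.4%) to rank 3 (11.6% to 12.8%). In spleens these ranks held 29.7%, 24.5%, 18.8%, 14.7% and 3.25% in LSK mice and 33.6%, 25.6%, 12.4%, 8.53% and 5.43% in GMP mice. The spleen of mouse 9 stepped down less sharply, with 9.85% at rank 4 and 3.89% at rank 5, while the other LSK spleens averaged 16.3% and 3.03% at these ranks. Ranks 3 and 4 together held 32.3% to 40.1% of LSK and 20.1% to 29.1% of GMP marrows, and 25.6% to 36.7% of LSK and 18.3% to 25.2% of GMP spleens, with no overlap within a tissue. The 4 largest clones together held 80.2% to 93.1% of LSK samples and 74.3% to 87.9% of GMP samples. The largest clone alone held 28.3% ± 3.35 in LSK and 31.2% ± 3.38 in GMP marrows (exact permutation p = 0.229), and 29.7% ± 3.05 in LSK and 33.6% ± 3.09 in GMP spleens (exact permutation p = 0.143, SD, n = 4 each).

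**Figure D2:**
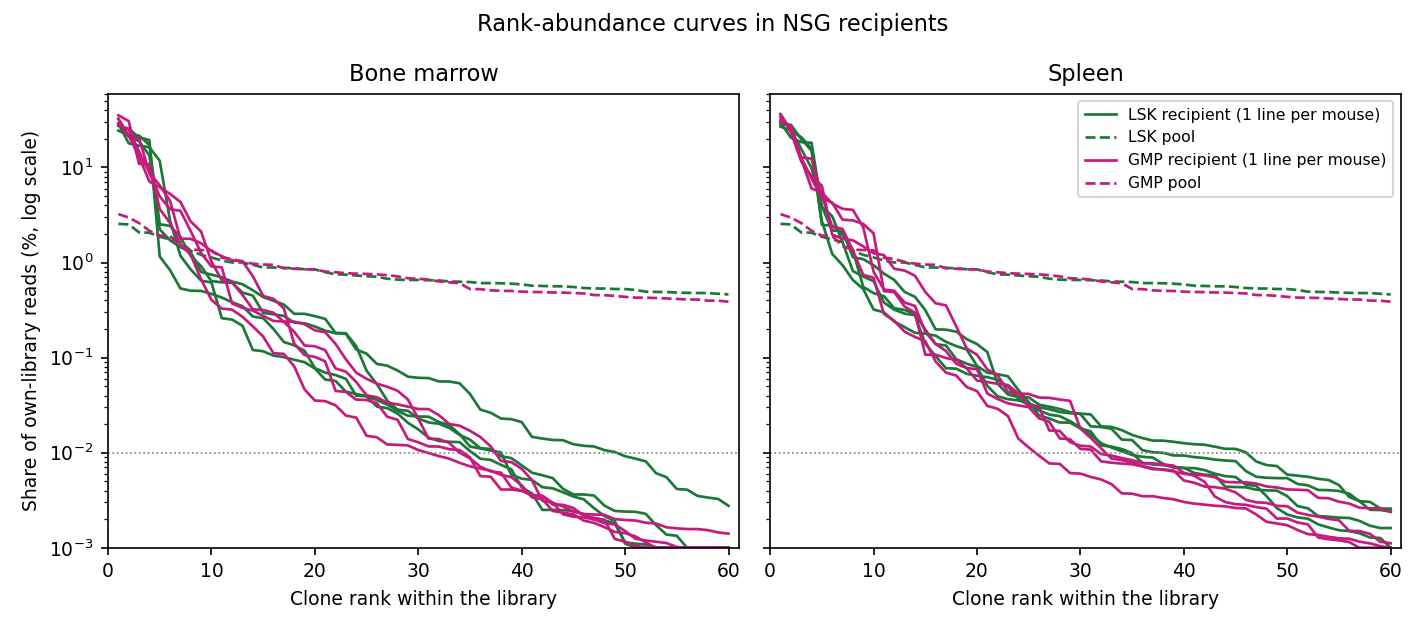
Share of own-library reads (y axis, log scale, percent) against clone rank (x axis) in marrow and spleen, with 1 solid line per mouse, green for LSK and magenta for GMP recipients, and a dashed line for each pool. The dotted line marks 0.01%, the minimum of 100 CPM. The marrow curves of LSK mice 10 to 12 stay high through rank 4 and drop at rank 5 (means of 16.7% and 1.97% without mouse 9), and that of mouse 9 drops at rank 6. GMP curves decline more evenly on average, with earlier steps in single mice, and both pools are far flatter.

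The same 4 clones were the largest in 7 of 8 LSK samples, the marrow of mouse 9 being the exception. GFP_Barcode_29850 averaged 25.7% ± 5.23 over both tissues (SD, n = 4 mice), against 0.563% of the LSK pool, where it ranked 44. In marrow it held 16.96%, 27.4%, 32.5% and 21.7% in mice 9 to 12, and in spleen 33.9%, 28.1%, 29.6% and 15.7%. It was the largest clone in 2 of 4 marrows and 2 of 4 spleens.

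The next 3 LSK clones were nearly level with each other. GFP_Barcode_7785 averaged 20.0% ± 6.68, against 2.08% of the pool (rank 3), and was lowest in mouse 9, at 11.8% of marrow and 9.85% of spleen. GFP_Barcode_100907 had the smallest SD of the 4, at 19.7% ± 1.70, against 0.533% of the pool (rank 48). GFP_Barcode_1859 averaged 19.3% ± 4.63, against 0.462% of the pool (rank 60, SD, n = 4 mice each). It was the largest clone of mouse 12, at 24.4% of marrow and 27.0% of spleen. Together these 4 clones held 84.7% ± 7.81 of the reads of LSK mice (SD, n = 4), against 3.64% of their pool.

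Barcodes that sit in the same cell would keep a constant ratio, so ratios were compared between samples. Over the 8 LSK samples the ratio of GFP_Barcode_29850 to GFP_Barcode_100907 ran from 0.646 to 1.88, against 1.06 in the pool. The ratio of GFP_Barcode_100907 to GFP_Barcode_1859 ran from 0.706 to 1.58, against 1.15 in the pool. All 6 ratios among the 4 clones varied at least 2.24-fold between samples. All 6 ratios among the 4 leading GMP clones varied at least 2.27-fold, and that of mCHERRY_2_Barcode_626161 to mCHERRY_2_Barcode_283858 ran from 0.677 to 1.54, against 6.06 in the pool. Ratios among the remaining clones were not compared.

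Behind the first 4 came smaller LSK clones. GFP_Barcode_20873 averaged 1.52% ± 0.48, against 0.0181% of the pool (rank 558), and this ratio of 83.8 was the highest among the 8 leading LSK clones. It was higher in spleen than in marrow in 4 of 4 mice, with means of 0.919% in marrow and 2.11% in spleen. GFP_Barcode_2255 averaged 1.49% ± 1.34, against 0.0391% of the pool (rank 382), and it too was higher in spleen in 4 of 4 mice. GFP_Barcode_15135 averaged 1.18% ± 0.72, against 0.747% of the pool (rank 23, SD, n = 4 mice each).

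GFP_Barcode_148344 was large in mouse 9 alone. It was the largest clone of that mouse's marrow at 28.9% and held 3.89% of the same mouse's spleen, against 1.05% of the LSK pool (rank 11). In mice 10, 11 and 12 it did not exceed 0.000306% of either tissue and was at 0 in 3 of these 6 samples. Its mean of 4.10% ± 8.20 (SD, n = 4) therefore rests on 1 mouse.

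GMP recipients were led by a pair of clones. mCHERRY_2_Barcode_626161 averaged 29.4% ± 3.09 (SD, n = 4 mice), against 2.97% of the GMP pool (rank 2), with 32.5%, 27.9%, 30.8% and 29.1% in the marrows of mice 13 to 16 and 27.1%, 24.5%, 36.3% and 27.4% in their spleens. mCHERRY_2_Barcode_283858 averaged 28.1% ± 2.32, against 0.491% of the pool (rank 41), with 21.7%, 25.1%, 35.4% and 21.2% in marrow and 31.7%, 36.2%, 23.6% and 30.3% in spleen. The first was the largest clone in 3 of 4 marrows and 1 of 4 spleens, and the second in 1 of 4 marrows and 3 of 4 spleens. Mouse 15 was the exception in both tissues. They were the 2 largest clones in 8 of 8 GMP samples. The pair held 57.6% ± 3.86 of the reads of GMP mice (SD, n = 4), against 3.47% of their pool.

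The remaining leading GMP clones held smaller shares. mCHERRY_2_Barcode_1204592 averaged 11.9% ± 3.52, against 2.16% of the pool (rank 4). mCHERRY_2_Barcode_88201 averaged 7.34% ± 1.96, against 0.436% of the pool (rank 50), and was higher in marrow than in spleen in 4 of 4 mice, with means of 10.4% in marrow and 4.30% in spleen. mCHERRY_2_Barcode_205681 averaged 4.28% ± 1.08, against 0.0611% of the pool (rank 292), and this ratio of 70.1 was the highest among the 8 leading GMP clones. mCHERRY_2_Barcode_532289 averaged 3.95% ± 2.13, mCHERRY_2_Barcode_4128 3.72% ± 2.48 and mCHERRY_2_Barcode_457303 2.33% ± 2.11 (SD, n = 4 mice each). The last of these ranged from 0.0464% of mouse 15's marrow to 6.19% of mouse 13's. mCHERRY_2_Barcode_151869 reached 8.87% in the marrow of mouse 14 alone and did not exceed 0.225% in any other GMP sample.

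**Figure D3:**
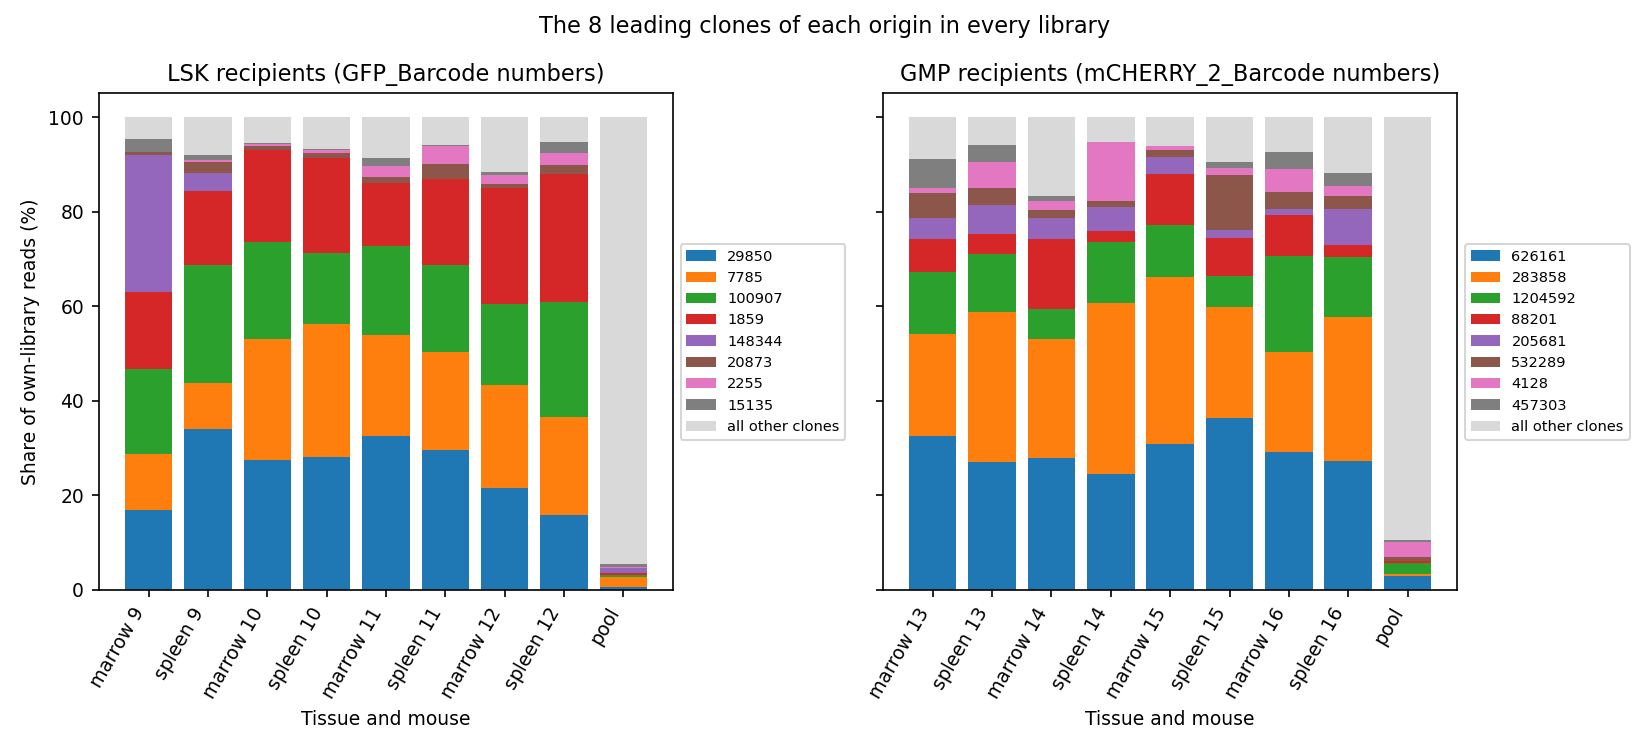
Stacked bars give the share of own-library reads (y axis, percent) of the 8 leading clones of LSK recipients on the left and of GMP recipients on the right, for marrow and spleen of each mouse and for the pool. Colours stand for clones, named by barcode number, and grey for all other clones. The 8 clones average 93.0% of LSK mice from 5.49% of the pool and 91.1% of GMP mice from 10.5% of the pool, and the purple block of 28.9% in the marrow of mouse 9 is GFP_Barcode_148344.

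The spread between mice of the same origin did not separate LSK from GMP recipients. The Bray-Curtis distance, which is 0 for identical shares and 1 for no clone in common, was taken from each mouse to the mean of the other mice of its origin. In marrow it was 0.323, 0.169, 0.199 and 0.188 for LSK mice 9 to 12, against 0.174, 0.199, 0.176 and 0.201 for GMP mice 13 to 16. Mouse 9 lay farthest out, and GFP_Barcode_148344 made up 28.9% of its marrow. In spleen, where this clone made up 3.89% of mouse 9, that mouse was again the farthest LSK mouse, at 0.241. The part of this clone in the distance was not tested. The means were 0.220 ± 0.070 in LSK and 0.187 ± 0.015 in GMP marrows (SD, n = 4 each, exact permutation p = 0.6, adjusted 0.729). Without mouse 9 the marrow difference turned to -0.052 (exact permutation p = 0.0286, adjusted 0.162), against 0.032 with all mice. Without mouse 10 it was 0.084 (exact permutation p = 0.0286, adjusted 0.162). With an LSK mouse left out, LSK distances were taken to a mean of fewer mice than GMP distances. Each distance also uses the other mice of its group, so the distances are not independent and the p-values of this measure are descriptive. In spleen the means were 0.180 ± 0.055 in LSK and 0.192 ± 0.096 in GMP mice (exact permutation test, adjusted p = 0.880).

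Pairs of mice shared most of their 10 largest clones. LSK pairs shared 6 to 7 in marrow and 6 to 8 in spleen, against 7 to 9 in marrow and 7 to 10 in spleen for GMP pairs (6 pairs of the same 4 mice each, so not independent). In marrow, 20 of the 69 LSK clones that reached 100 CPM in any mouse did so in all 4 mice and held on average 89.9% of the reads, against 14 of 62 GMP clones with 93.1%. In spleen 22 of 61 LSK clones were found in all 4 mice with 97.0% of the reads, against 19 of 45 GMP clones with 98.4%. Clones detected in 1 mouse only were 28 of 69 in LSK marrows and 28 of 62 in GMP marrows. They held 7.75% of LSK marrow reads, where GFP_Barcode_148344 is among them, and 0.746% of GMP marrow reads.

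Marrow and spleen of the same mouse differed by a Bray-Curtis distance of 0.31, 0.080, 0.10 and 0.15 in LSK mice 9 to 12, against 0.19, 0.33, 0.24 and 0.25 in GMP mice 13 to 16. The LSK tissues were closer in 3 of 4 mice than in any GMP mouse, and mouse 9 was not. Means were 0.162 ± 0.106 for LSK and 0.251 ± 0.058 for GMP mice (SD, n = 4 each, exact permutation p = 0.171, adjusted 0.432). The difference of -0.089 became -0.14 without mouse 9 (exact permutation p = 0.0571). It became -0.038 without the mice that had a tissue with at least 0.1% of reads from the other barcode library (exact permutation p = 1). That left LSK mice 9 and 11 against GMP mice 15 and 16, too few for a p under 0.05. The share of retained pool clones was higher in marrow than in spleen in 3 of 4 LSK mice (by 0.18 ± 0.19 points) and 4 of 4 GMP mice (by 0.74 ± 0.34 points, SD, n = 4 each). This difference of -0.56 points between the origins had an exact permutation p of 0.0571 and an adjusted p of 0.457. For the other 7 measures the origin-by-tissue difference had an exact permutation p of 0.4 to 0.971.

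How far the pool foretold the outcome was measured by Spearman's rho between pool share and share in the sample, across the pool's clones. Clones of a sample share its depth, so rho is given as a description of each sample. In marrow it was 0.268, 0.254, 0.546 and 0.323 for LSK mice 9 to 12, against 0.476, 0.243, 0.265 and 0.286 for GMP mice 13 to 16. In spleen it was 0.279, 0.348, 0.251 and 0.244 for LSK mice and 0.247, 0.513, 0.372 and 0.256 for GMP mice. Mice of both origins overlapped in marrow (0.348 ± 0.136 in LSK and 0.318 ± 0.107 in GMP mice, exact permutation p = 0.6) and in spleen (0.280 ± 0.048 in LSK and 0.347 ± 0.12 in GMP mice, exact permutation p = 0.371, SD, n = 4 each). Without LSK mouse 11 the marrow difference of 0.030 turned to -0.036. Other correlation measures with all values kept had LSK means below GMP means in both tissues. Pearson's r on log2 of CPM plus 10 differed by -0.042 in marrow and -0.022 in spleen (exact permutation p = 0.0286, adjusted 0.162, for each). Spearman's rho over the pool clones at or over 100 CPM differed by -0.032 in marrow (exact permutation p = 0.543) and by -0.15 in spleen (exact permutation p = 0.0571, adjusted 0.324), against -0.066 in spleen over all pool clones.

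The highest values of rho came from samples with many clones at trace levels. LSK mouse 11's marrow had 198 clones above 0 and under 10 CPM, GMP mouse 14's spleen 131 and GMP mouse 13's marrow 106, while LSK mouse 9's spleen had 12 and GMP mouse 13's spleen 11. With values under 10 CPM set to 0, rho lay between 0.200 and 0.278 in all 16 samples. Marrow means were then 0.218 ± 0.013 in LSK and 0.261 ± 0.019 in GMP mice (SD, n = 4 each), every LSK marrow was below every GMP marrow, and the difference of -0.043 had an exact permutation p of 0.0286 (adjusted 0.162). Spleen means were 0.240 ± 0.019 in LSK and 0.240 ± 0.005 in GMP mice (exact permutation p = 0.971). This setting was chosen after the values had been seen.

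**Figure D4:**
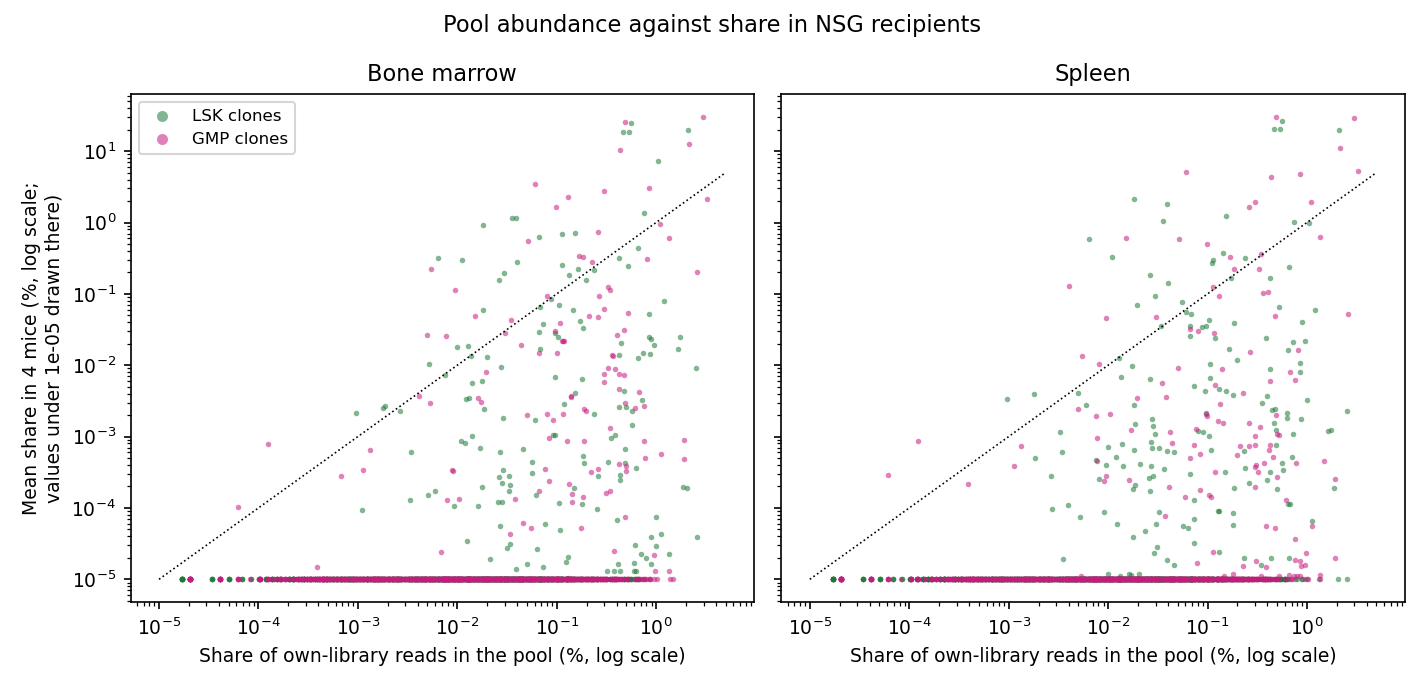
Each point is a clone of the LSK pool (green) or the GMP pool (magenta), with its share of the pool on the x axis and its mean share over 4 mice on the y axis (both in percent, log scales, values under 1e-05% drawn at 1e-05%), for marrow and spleen. The dotted diagonal marks equal shares. Most clones lie on the floor. The leading clones had pool shares of 0.0181% to 3.24%. Most of them lie above the diagonal, while mCHERRY_2_Barcode_4128 lies below it in marrow (mean of 2.11% in the mice, against 3.24% of the pool) and GFP_Barcode_148344 in spleen (0.973% in the mice, against 1.05% of the pool).

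Losses reached the top of both pools. The largest LSK pool clone, GFP_Barcode_13743, was at 0 in 6 of 8 LSK samples, which allows a share of up to 4.99e-05%, and did not exceed 0.000143% in the others, against 2.55% of the pool. The LSK pool clones of rank 2, 4 and 5 (GFP_Barcode_61835, GFP_Barcode_1207 and GFP_Barcode_3877) did not exceed 0.0357% of any sample. Among the 5 largest GMP pool clones, mCHERRY_2_Barcode_4128, mCHERRY_2_Barcode_626161 and mCHERRY_2_Barcode_1204592 were leading clones in the mice. mCHERRY_2_Barcode_4128, at rank 1, averaged 3.72% in the mice, against 3.24% of the pool, a ratio of 1.15. mCHERRY_2_Barcode_205626, at rank 3, averaged 0.128% in the mice, against 2.60% of the pool. mCHERRY_2_Barcode_34872, at rank 5, did not exceed 0.00183%.

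The 10 most abundant pool clones weighed differently in the recipients. In each LSK sample 1 of them was among the 10 largest clones, against 3 or 4 in each GMP sample. They held 11.9%, 25.6%, 21.6% and 21.7% of the marrows of LSK mice 9 to 12, against 47.5%, 37.9%, 42.5% and 54.8% of the marrows of GMP mice 13 to 16. In spleen they held 10.0%, 28.2%, 20.7% and 20.9% in LSK mice, against 45.1%, 49.7%, 46.2% and 42.6% in GMP mice. Every LSK sample lay below every GMP sample (difference of -25.5 points in marrow and -26.0 points in spleen, exact permutation p = 0.0286 and adjusted p = 0.162 for each). This set of 10 clones was also chosen after the values had been seen, and the adjusted p does not account for that choice.

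With abundance widened to 10% of the pool's clones, the LSK means lay above the GMP means, though not beyond the spread between mice. The most abundant 10% of the pool's clones at or over 100 CPM, 68 LSK and 61 GMP clones, held 91.7% ± 3.85 of LSK and 86.3% ± 4.64 of GMP marrows (exact permutation p = 0.143, adjusted 0.432), and 90.3% ± 1.85 of LSK and 87.7% ± 3.76 of GMP spleens (exact permutation p = 0.229, adjusted 0.432). Before transplantation these sets had held 54.4% of LSK and 52.1% of GMP pool reads. With the pool's share subtracted, the difference of 5.44 points in marrow became 3.12 points (exact permutation p = 0.314), and that of 2.65 points in spleen became 0.33 points (exact permutation p = 0.914). The most abundant 5%, 34 LSK and 30 GMP clones, held 29.4% ± 9.84 of LSK and 50.0% ± 8.88 of GMP marrows (exact permutation p = 0.0571, adjusted 0.324), and 22.3% ± 5.70 of LSK and 52.7% ± 3.87 of GMP spleens (exact permutation p = 0.0286, adjusted 0.162, SD, n = 4 each). The most abundant 20%, 136 LSK and 121 GMP clones, held 92.4% ± 3.69 of LSK and 90.5% ± 4.46 of GMP marrows. In spleen the order turned, with 90.9% ± 1.97 in LSK and 92.0% ± 1.41 in GMP mice (SD, n = 4 each). The leading LSK clones at pool ranks 44, 48 and 60 and the leading GMP clones at pool ranks 41 and 50 lie inside the 10% set and outside the 5% set.

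The pool's clones at or over 100 CPM, 679 for LSK and 607 for GMP, were split into quartiles by pool share. Clones of the top quartile were detected more often than those of the lowest for both origins. In marrow, 12.8% ± 1.62 of the LSK clones in the top quartile were at or over 100 CPM, against 2.37% ± 0.48 of those in the lowest quartile. For GMP marrows these shares were 14.8% ± 1.57 in the top quartile and 0.993% ± 0.382 in the lowest (SD, n = 4 mice each). The order was not strict, as the GMP marrow share in the next-to-lowest quartile was 0.822% ± 0.630. In spleen the LSK shares were 10.9% ± 1.13 in the top and 2.07% ± 1.02 in the lowest quartile, and the GMP shares 11.5% ± 0.66 and 0.662% ± 0.541 in the top and the lowest. The top quartile supplied 93.4% ± 3.58 of the reads of LSK marrows and 91.2% ± 4.57 of GMP marrows. In spleen it supplied 92.5% ± 1.37 of LSK and 92.5% ± 1.55 of GMP reads. The lowest quartile supplied 1.35% ± 0.45 of LSK marrow reads and 0.0639% ± 0.0727 of GMP marrow reads, and 2.55% ± 0.90 of LSK and 0.608% ± 1.11 of GMP spleen reads (SD, n = 4 mice each). GFP_Barcode_20873 was a clone of the lowest LSK quartile. No test compared the quartiles between origins.

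Against Ptprca mice, which have a working immune system, the difference between origins was compared for 8 measures in each tissue. These mice comprised 3 recipients of LSK and 4 of GMP leukaemia, and their table was deposited separately. Of the 16 comparisons, 0 passed after adjustment by permuting hosts within origin, and 1 had an unadjusted p under 0.05. The largest clone of the spleen held 29.7% ± 3.05 of LSK and 33.6% ± 3.09 of GMP recipients in NSG mice (SD, n = 4 each), against 48.0% ± 3.72 of LSK (n = 3) and 34.9% ± 1.73 of GMP recipients (n = 4) in Ptprca mice. LSK minus GMP was thus -3.96 points in NSG and 13.1 points in Ptprca mice, a difference of -17.1 points (exact permutation p = 0.0322, adjusted 0.516). Permuting origins within host, which was added after seeing the data, gave an exact permutation p of 0.00204 and an adjusted p of 0.0327. Either permutation also moves with the effect of the factor that is shuffled, so neither tests the difference between the effects alone. In marrow the effective number of clones averaged 6.75 in LSK and 7.38 in GMP recipients in NSG mice, against 18.4 ± 2.47 in LSK (SD, n = 3) and 11.5 ± 0.82 in GMP recipients (SD, n = 4) in Ptprca mice. That difference between hosts, -0.80 on the log2 scale, had an exact permutation p of 0.227 (adjusted 0.873), and 0.0098 (adjusted 0.157) with origins permuted within host. For the distance to other mice in marrow, leaving out mouse 9 moved the difference between hosts to -0.14 (exact permutation p = 0.00143, adjusted 0.0229), against -0.051 with all mice (exact permutation p = 0.327). With all mice, LSK distances were taken to a mean of fewer mice in Ptprca than in NSG recipients, and without mouse 9 to equally many. These values thus rest on unlike distances, and distances within a group are not independent.

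The NSG mice that received both leukaemias offered each barcode library side by side in 1 animal. Counted within its own library, the LSK part had 31, 30 and 20 clones at or over 100 CPM in the marrows of mice 21, 22 and 23, and the GMP part had 23, 27 and 15. In spleens the LSK part had 32, 32, 21 and 29 in mice 21 to 24, against 29, 22, 16 and 31 for the GMP part. LSK clones were thus more numerous in 3 of 3 marrows and 3 of 4 spleens, a count that is given without a test. As a share of the clones of each library in the mixed pool, LSK was higher in 3 of 3 marrows and 2 of 4 spleens. The mean difference was 0.59 ± 0.33 points in marrow (SD, n = 3) and 0.19 ± 0.68 points in spleen (SD, n = 4). The largest LSK clone of these mice was GFP_Barcode_29850, GFP_Barcode_7785 or GFP_Barcode_1859 in every sample, and the largest GMP clone was mCHERRY_2_Barcode_626161 or mCHERRY_2_Barcode_283858, all among the leading clones of the single-origin recipients.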

How the data were processed

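The authors deposited 1 table of barcodes per host with a column per mouse tissue or pool. Its values are CPM (barcode counts scaled so that each column sums to 1000000), in which the authors had filtered barcodes and collapsed PCR duplicates, per the file headers and names; how they were combined is not given in the sources used here. Bowtie 1.2.2 and R 3.6 are named in the submitters' processing notes. The labels give genomic DNA, but their extraction protocol describes a droplet preparation. Every CPM value was a whole multiple of 1 step within 0.01, taken as 1 read to give the depth; no count test was run. A clone at 0 may hold up to 3 reads, 3.53e-05% to 5.19e-05% of a sample. Counting error gave pool shares of named clones a 95% Wilson half-width of at most 6.02% of the share. Both reflect counting error alone, because reads of PCR copies are not independent molecules when no molecular identifier is read.

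Values were rescaled to the reads of the mouse's own barcode library (GFP for LSK, mCherry for GMP); 16 of the 26 columns of the NSG table were compared, with the pools as baselines. Groups came from the labels, and the mouse was the replicate. Means were compared by exact two-sided permutation tests over mice (SciPy 1.17.1, Python 3.11.15), clone numbers as log2, with Benjamini-Hochberg adjustment over 17 origin, 8 origin-by-tissue and 16 origin-by-host tests at 0.05. Bone marrow and spleen of a mouse are paired by its number in the labels; mice of different origin are not paired. The permutation test between groups of mice was checked on simulated libraries, for effective clones. For the test between hosts only the difference was checked, not its p.

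The members and measures were chosen with earlier results of these data known. Named clones were the 8 with the highest mean share over the 4 mice of an origin, the 5 most abundant of each pool, and any other at or over 5% of a sample. Barcode sequences and insertion sites were not analysed here. Alternatives were other minima, indices, distances, correlations and cut-offs, values as deposited, and each mouse left out. The adjusted p of an alternative was found with its p in place of the main one among the same tests. It does not account for the number of alternatives tried. Some were chosen after seeing the data: leaving out samples with at least 0.1% of reads from the other barcode library or 1% in barcodes absent from the pool, origins permuted within host, each mouse left out of the tissue and host comparisons, values under 10 CPM set to 0, clone shares by rank without mouse 9, and the 10 most abundant pool clones.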

Additional observations from a re-analysis of the deposited data

Results flagged for a closer look

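In groups of 4 mice, a sample was picked out when its gap to the nearest other mouse took up most of the range (Dixon's test, of 34 groups examined, in which chance picks out about 5%). The marrow of GMP mouse 15 held 5.66 effective clones, against 7.74 to 8.11 in the other GMP marrows. The spleen of GMP mouse 14 held 25 detected clones, against 31 to 32 in the other GMP spleens. The same spleen held 6.03 effective clones, against 7.24 to 7.44 in the others. It was also the sample with the most reads from the other barcode library, 0.538%, whose part in these values was not tested.

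The largest clone's share of the spleen was picked out because its difference between origins, LSK minus GMP, differed by -17.1 points between NSG and Ptprca mice (exact permutation p = 0.0322, adjusted 0.516). In Ptprca spleens it was 44.1%, 51.4% and 48.5% in LSK mice 1 to 3, against 33.6%, 36.7%, 33.2% and 36.0% in GMP mice 5 to 8.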

How the results depend on the processing

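With 1 culture and 4 mice per origin, differences smaller than the spread between mice could not be shown, and at 5785591 reads or more the minimum of 100 CPM lay well above the limit of 3 reads. Under the alternatives other than leaving out a mouse, 116 values kept their direction and call, 25 changed sign and 1 passed the threshold; leaving out a mouse gave 397, 42 and 1. No cause of these changes was tested. The detected-clone difference in spleen (LSK minus GMP here and below) became -0.18 over all clones above 0 and -0.16 after rarefaction to the lowest depth (log2). Retained pool clones at 1000 CPM became -0.82 points in marrow and -0.52 in spleen, and the top 20 share -0.41 points in marrow and -0.19 in spleen. The abundant-clone share became -20.6 in marrow and -30.4 points in spleen for the top 5%, -1.05 in spleen for the top 20%, and -25.5 in marrow and -26.0 in spleen for the 10 most abundant pool clones. The marrow pool correlation became -0.032 over pool clones at or over 100 CPM, -0.042 and -0.026 as Pearson's r on log2 of CPM plus 10 and plus 1, and -0.043 with values under 10 CPM set to 0, when that of spleen was 0.00031. With the mouse as a replicate block over its paired tissues, the marrow pool correlation was -0.018 and the spleen distance to other mice 0.0099; the block changed no other direction and no call.

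Without samples holding reads of the other barcode library, retained clones in marrow became -0.068 points, detected clones by tissue 0.060 (log2), the largest clone by tissue -0.047 points, and in NSG minus Ptprca retained clones in spleen 0.32 points, the largest clone in marrow 0.14 points, the distance in spleen -0.017 and the pool correlation in marrow -0.027. With origins permuted within host the spleen's largest-clone value of -17.1 points passed the threshold.

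Leaving out each mouse in turn gave changes of sign in the following ranges. Between origins, retained clones in marrow ran from -0.068 to 0.51 points, the top 10 share from -0.60 to 0.76 in marrow and from -0.52 to 0.87 points in spleen, the distance to other mice from -0.052 to 0.084 in marrow and from -0.079 to 0.048 in spleen, and the marrow pool correlation from -0.036 to 0.083. Between tissues, effective clones ran from -0.14 to 0.12 (log2), the largest clone from -0.92 to 2.26 points, the top 10 share from -1.44 to 1.28 points, the distance from -0.030 to 0.084 and the abundant-clone share from -0.0037 to 5.61 points. Between hosts, spleen values ran from -0.067 to 0.10 for detected and from -0.17 to 0.024 for effective clones (log2), from -0.64 to 0.23 points for retained clones, from -0.057 to 0.071 for the distance and from -1.22 to 3.23 points for the abundant-clone share. Marrow values ran from -0.017 to 0.14 for the pool correlation and from -0.14 to 0.00090 for the distance, the lowest of these without mouse 9, where it passed the threshold (exact permutation adjusted p = 0.0229). For every distance to other mice, leaving out a mouse also left fewer mice in the mean to which its group was compared.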
